A study of Mus musculus with 18 samples.

Results

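The clustered protocadherin locus lies on mouse chromosome 18 and was taken here as the window chr18:36900001-37860000 of the mm10 build. Its members were chosen by position alone, as the 500-bp bins of a methylated-DNA capture table that lie inside this window, and 1916 of the 5128560 bins of the table do. RefSeq annotation of the same build places the starts of 58 protocadherin isoforms in it, namely 12 variable isoforms of the alpha cluster, 22 isoforms of the beta cluster, 19 variable isoforms of the gamma cluster and 5 isoforms of the C type (Pcdhac1, Pcdhac2, Pcdhgc3, Pcdhgc4 and Pcdhgc5). Pcdhgb8, counted here among the variable gamma isoforms, is annotated as a transcribed pseudogene. The alpha cluster held 516 bins, the beta cluster 513 and the gamma cluster 360. The remaining bins lay between the clusters or in the flanks.

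Clustered protocadherins are cell-surface adhesion proteins that are best known for giving single neurons of the brain an identity. Each isoform has a large first exon that encodes the extracellular domain and carries its own promoter. In the alpha and gamma clusters this exon is spliced to constant exons shared by the whole cluster, whereas each beta gene is a single exon. Promoter choice in neurons is known to be tied to DNA methylation of the promoter and first exon and to CTCF binding, and the C-type isoforms, which lie last in the alpha and gamma clusters, are known to be regulated differently from the variable ones.

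The study asked how the DNA methylome of skeletal muscle changes with age, with T cells beside it. All mice were C57BL/6J females of 2, 20 or 28 months (2 m, 20 m and 28 m). Muscle was the whole hindlimb muscle, and T cells were isolated from the spleen of each mouse by magnetic sorting. Genomic DNA of 3 mice of an age was pooled, sonicated and captured with the methyl-CpG-binding domain (MBD), so that each tissue and age had 1 library in the table used. No test between ages, or between tissues at 1 age, could therefore be made, and the tissues were compared by whether their values at the 3 ages overlap, with no test. Muscle DNA was captured in a pair of rounds from the same pools, and the column names of the table do not give the round. Muscle RNA of these mice was sequenced without pooling (poly-A selected), with 3 libraries for each age. In such bulk samples a change in the number of methylated cells and a change in methylation per cell cannot be told apart.

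MBD levels are given as normalized counts per 500-bp bin, which are reads divided by the size factor of the library. Every statement below that a T-cell level lay above a muscle level is relative to this scaling, since with all libraries set to an equal sum all 3 T-cell values exceeded all 3 muscle values at 0 promoters and 0 first exon bodies. The 6 libraries held from 135254786 to 200456498 reads over all bins and from 52112 to 61337 reads in the window. The 28-m muscle library stood apart from the other 5. Its levels spanned a narrower range, with a standard deviation (SD) of 1.27 on the log2 scale over the window against 2.07 to 2.70 in the others, and the same held over all bins, where the SD was 1.10 against 1.79 to 2.29. Only 0.418% of its bins in the window were at 0, against 11.2% to 31.1% in the others. At 2 m, the starts of all 5 muscle marker genes examined had lower levels in muscle than in T cells and the starts of all 5 T-cell marker genes had lower levels in T cells. At 28 m this order was turned for 3 of the T-cell markers (Cd3e, Cd2 and Lck) and 1 of the muscle markers (Tnnt3), and with all ages the ranges of the tissues overlapped for these 4 genes.

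The locus was richer in CpGs than the genome and heavily captured in both tissues. Its bins held 5.94 CpGs on average, compared with 4.17 over all bins, and 129 of them (6.73%) held over 20 CpGs, compared with 0.985% of all bins. Of these 129 CpG-dense bins, 116 had a level of at least 30 in 2-m muscle (89.9%) and 120 in 2-m T cells (93.0%). Over all CpG-dense bins of the table the shares were 41.0% and 42.2%, and over the Hox clusters, taken as another set of tandem developmental genes, 14.8% and 15.9%. The share of captured CpG-dense bins was thus higher at the protocadherins than over the table in every library, up to 96.9% in 28-m T cells, where the share over all CpG-dense bins was 52.1%. Across the window, the level followed the number of CpGs, with a Spearman coefficient of 0.81 in 2-m muscle and 0.84 in 2-m T cells over the 1916 bins, which share their libraries. The corresponding values over all bins were 0.74 and 0.77.

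**Figure D1:**
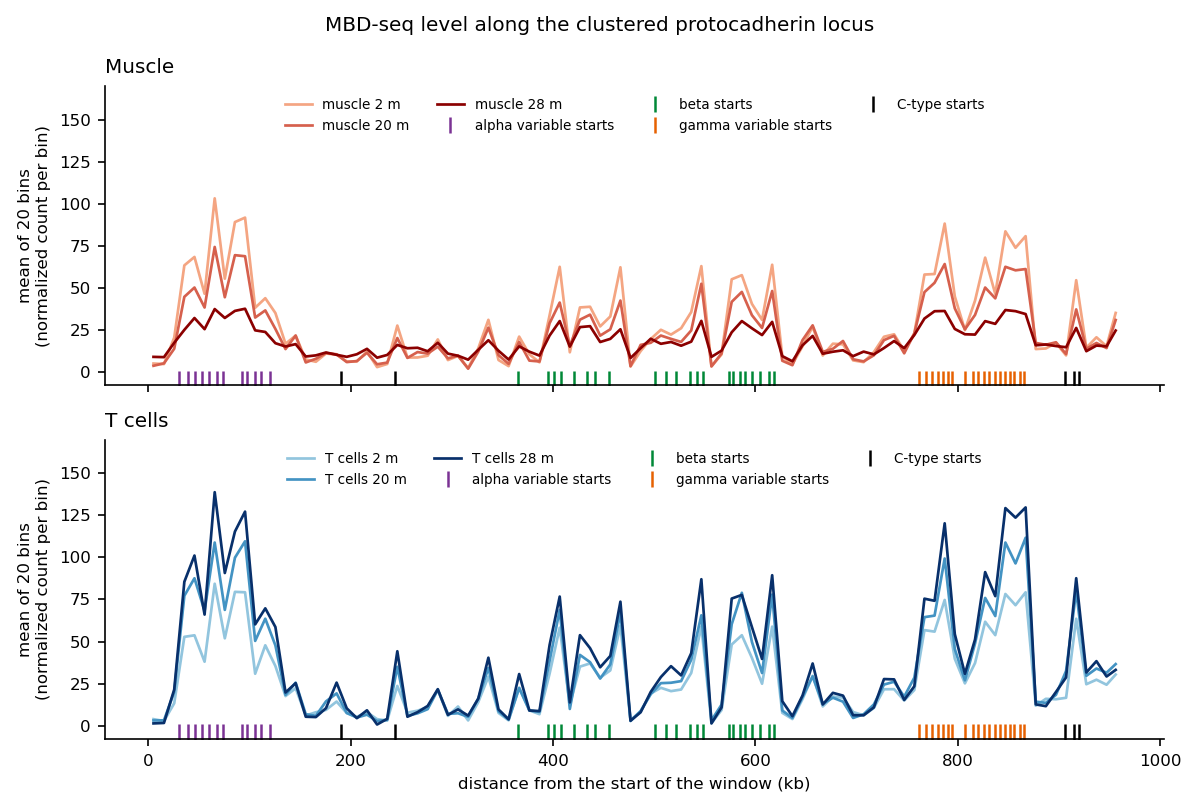
MBD level along the window in muscle (top) and T cells (bottom), as means of 20 bins in normalized counts per bin against distance from the start of the window in kb; 1 line is 1 library, and ticks mark isoform starts. The peaks sit at the isoforms of the alpha, beta and gamma clusters, and where the 2-m muscle line is above 50 the 28-m line is the lowest in muscle, and the highest in T cells at all but 1 of these points.

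The level was low at the starts of the isoforms and high inside the first exons. The promoter was taken as the bins that overlap 500 bases on either side of the annotated start, and the first exon body as the remaining bins of the first exon. In 2-m muscle the mean level of the 58 promoters was 35.8 ± 20.8 (SD over isoforms) and that of the 58 first exon bodies was 122 ± 52.5. In 2-m T cells the means were 39.0 ± 22.4 and 112 ± 39.9. Around the 12 variable alpha starts the mean in 2-m muscle was 14.4 at 500 bases before the start, 56.9 at the start and 245 at 1500 bases after it, where the mean number of CpGs per bin was also greatest, at 34.4. Beta isoforms had the least CpG-dense promoters, with 7.26 CpGs per bin against 14.8 in the variable alpha and 14.0 in the variable gamma isoforms, and also the lowest promoter levels among the variable isoforms, 22.6 ± 15.4 in 2-m muscle against 53.4 ± 14.9 and 44.0 ± 15.7.

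**Figure D2:**
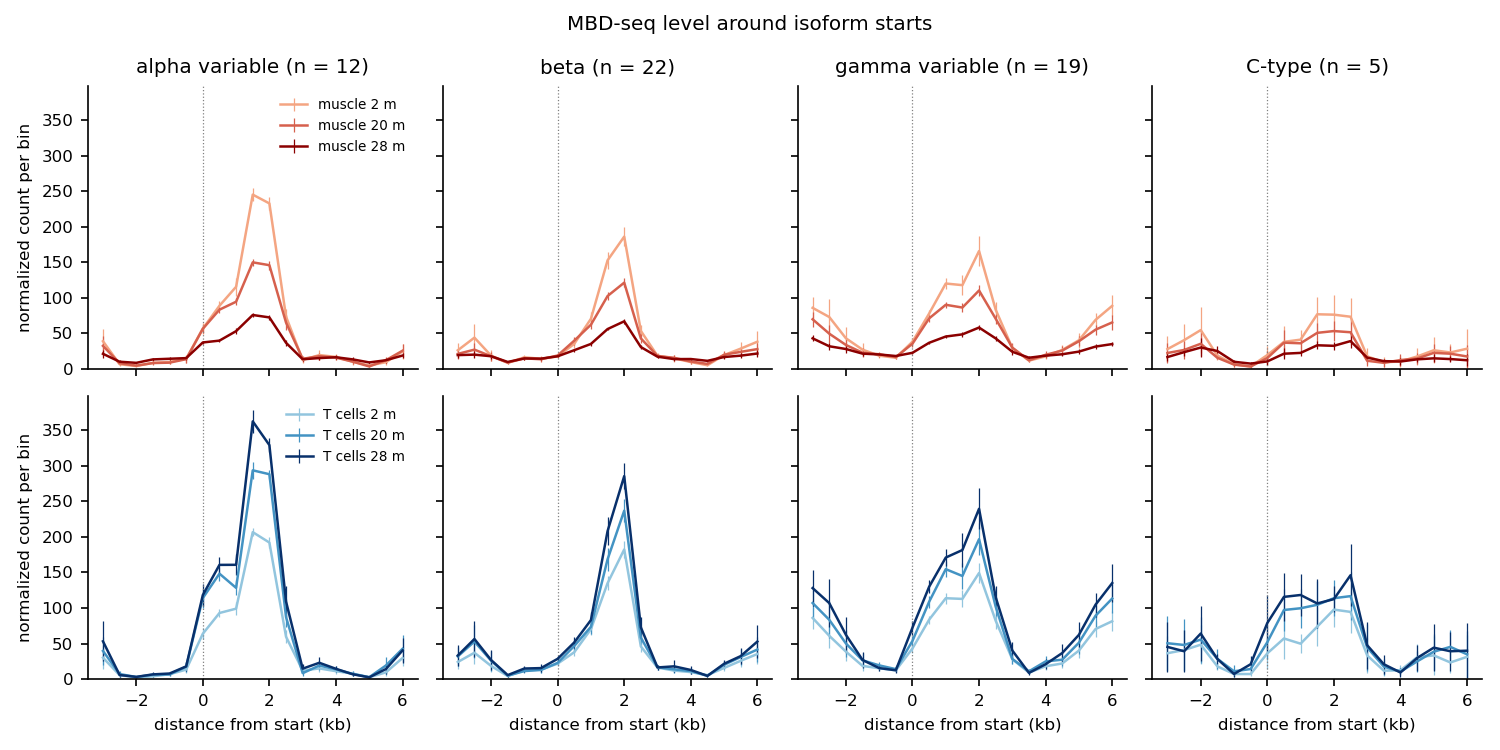
Mean MBD level, in normalized counts per bin, at distances in kb from the annotated isoform start (dotted line), for 4 kinds of isoform in muscle (top) and T cells (bottom); error bars are standard errors over isoforms, which are not replicates. In the variable isoforms the level is low 500 bases before the start and greatest 1 to 2 kb after it, the variable gamma isoforms also have high levels 2.5 to 3 kb before the start, and the C-type profile is flatter.

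Within each cluster the promoters ranged widely. In the alpha cluster the highest promoter levels over the 6 libraries were those of Pcdha1, Pcdha2 and Pcdha4. Pcdha1, the isoform nearest the start of the cluster, had 81.6, 49.4 and 36.1 in 2-m, 20-m and 28-m muscle and 63.3, 96.5 and 126 in T cells of the same ages. Pcdha2 had 65.2, 67.1 and 34.8 in muscle and 69.4, 118 and 108 in T cells. Both were lowest in 28-m muscle, and all 3 Pcdha2 values in T cells lay above its muscle values. The lowest among the variable alpha isoforms were Pcdha9, with 45.5, 40.7 and 23.4 in muscle and 43.3, 73.0 and 59.0 in T cells, and Pcdha5, with 50.9, 48.8 and 27.6 in muscle and 43.0, 67.3 and 70.1 in T cells. Pcdha4 reached the highest single value of these, with 50.3, 58.4 and 37.2 in muscle and 55.8, 144 and 119 in T cells. No variable alpha promoter was below 23.4 in any library.

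The beta promoters spanned a wider relative range than the variable alpha and gamma ones. Pcdhb13 had the highest beta promoter level, with 67.3, 61.5 and 37.2 in muscle and 75.1, 66.5 and 104 in T cells. Pcdhb17 had 44.3, 48.6 and 27.2 in muscle and 39.2, 67.3 and 62.1 in T cells, and Pcdhb8 lay between 28.0 and 41.4 in all 6 libraries. At the other end, Pcdhb9 did not exceed 4.04 in any library, with 2.12, 0.842 and 4.04 in muscle and 2.03, 0.811 and 0.441 in T cells, although its first exon body had 90.6 in 2-m muscle and 81.8 in 2-m T cells. Pcdhb21 showed the same contrast, with a promoter level between 2.43 and 7.86 in the 6 libraries and a first exon body of 144 in 2-m muscle. The Pcdhb16 promoter lay between 9.35 and 14.1 in all libraries.

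Among the variable gamma isoforms, Pcdhga8 had the highest promoter level in 2-m muscle, 87.6, followed by 60.9 at 20 m and 30.4 at 28 m, with 81.2, 105 and 139 in T cells. Pcdhga10 had 52.2, 67.4 and 30.4 in muscle and 88.0, 96.9 and 125 in T cells. Pcdhga11 had 54.3, 62.0 and 37.2 in muscle and 66.3, 103 and 118 in T cells. For the latter pair, every T-cell value lay above every muscle value. Pcdhga7 was the lowest of the variable gamma promoters over the 6 libraries, with 33.1, 23.0 and 16.6 in muscle and 21.7, 29.2 and 42.3 in T cells.

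The C-type isoforms held most of the CpG-dense bins of the locus that had little capture in young muscle. Of the 129 CpG-dense bins, 11 had a level below 10 in 2-m muscle, and 8 of these lay in the promoter or first exon of Pcdhac2, Pcdhgc3 or Pcdhgc4. The others lay at the start of Taf7, a gene for a subunit of the general transcription factor TFIID that lies between the beta and gamma clusters, and in stretches between the clusters. The Taf7 bin (47 CpGs) stayed at or below 12.1 in every library, with 5.46, 0 and 12.1 in muscle and 2.03, 1.22 and 2.64 in T cells.

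The promoter with the largest ratio of 28-m to 2-m T cells was that of Pcdhac2, the last isoform of the alpha cluster. The bin that holds the start (chr18:37143501-37144000, 47 CpGs) had 1.82, 1.68 and 0 in 2-m, 20-m and 28-m muscle and 0, 73.0 and 89.9 in T cells. In reads, these were 2, 2 and 0 in muscle and 0, 60 and 68 in T cells. Against the limit that 0 reads allow in the 2-m library (3 reads), the T-cell level was at least 24.0-fold higher at 20 m and at least 29.5-fold higher at 28 m. The next bin (43 CpGs) had 7.28, 6.74 and 7.65 in muscle and 17.3, 107 and 160 in T cells. Thus muscle showed no capture above 8 at either bin at any age, while both older T-cell libraries did.

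Over the whole Pcdhac2 promoter, muscle had 3.03 at 2 m (95% exact Poisson interval 1.45 to 5.58), 3.09 at 20 m (1.54 to 5.52) and 2.97 at 28 m (1.63 to 4.99). T cells had 5.75 at 2 m (3.35 to 9.21), 63.3 at 20 m (53.7 to 74.0) and 89.9 at 28 m (78.0 to 103). The ratio of 28-m to 2-m T cells was 15.6 (95% exact interval 9.52 to 27.3). These intervals cover counting error only, and they are too narrow because mates of a pair and adjacent bins share fragments. They do not cover the spread between mice, which pooling removed. Farther inside, the Pcdhac2 first exon body had 101, 60.4 and 40.5 in muscle and 76.1, 89.4 and 104 in T cells. Muscle was above T cells there at 2 m, unlike at the promoter.

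Pcdhgc3, the C-type isoform with the most RNA in muscle, had the lowest first exon body of the locus in 2-m muscle. Its promoter had 1.52, 1.40 and 7.22 in muscle and 3.72, 6.08 and 6.61 in T cells, with a ratio of 28-m to 2-m T cells of 1.78 (0.762 to 4.27), an interval that includes 1. Its first exon body had 6.14, 14.3 and 18.8 in muscle and 26.6, 85.2 and 83.6 in T cells. This was the only first exon body of the 58 with a higher level in 28-m than in 2-m muscle, with a ratio of 3.06 (2.00 to 4.84). All 3 T-cell values lay above all 3 muscle values, although 20-m and 28-m T cells were close to each other.

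Pcdhgc4 and Pcdhgc5 lie after Pcdhgc3. The Pcdhgc4 promoter had 0.910, 5.33 and 6.80 in muscle and 5.41, 19.5 and 25.6 in T cells, a ratio of 4.72 (2.68 to 8.80) between 28-m and 2-m T cells that came from the bin farthest into the exon (14.2, 58.4 and 75.3). The bin that holds its start had no more than 2.03 in any T-cell library. Its first exon body had 89.8, 68.0 and 36.6 in muscle and 122, 179 and 183 in T cells. The Pcdhgc5 promoter was captured at every age, with 54.6, 37.3 and 19.3 in muscle and 81.9, 71.4 and 86.8 in T cells, and its T-cell ratio of 1.06 (0.874 to 1.28) included 1. Pcdhac1 was intermediate, with a promoter of 42.5, 46.3 and 30.2 in muscle and 70.4, 112 and 150 in T cells, a T-cell ratio of 2.13 (1.79 to 2.54). The 5 C-type isoforms therefore did not behave as 1 group, and Pcdhac2 was the one whose start went from no reads to a level like that of the variable promoters.

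**Figure D3:**
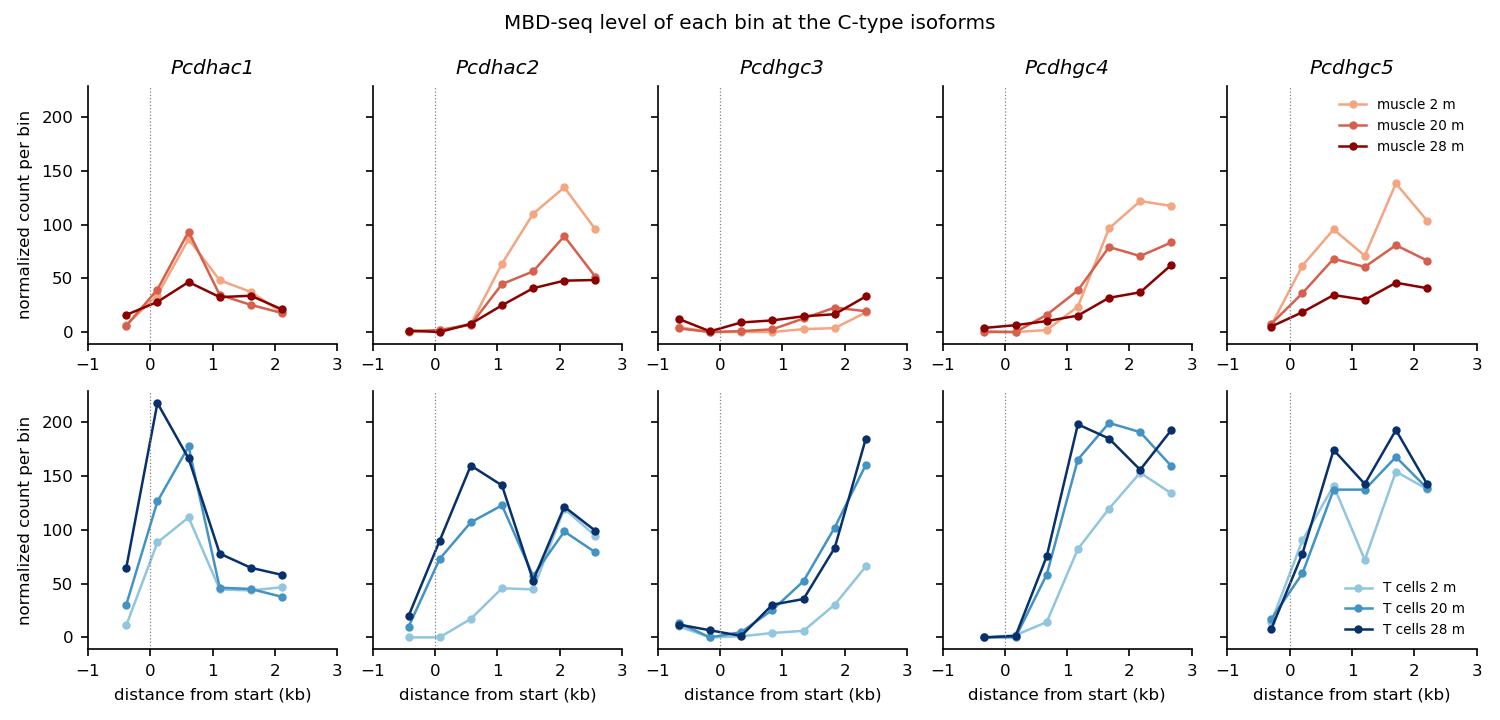
MBD level of each 500-bp bin, in normalized counts, at the promoter and first exon of the 5 C-type isoforms against the distance of the bin centre from the start in kb, in muscle (top) and T cells (bottom); 1 line is 1 library. At the start of Pcdhac2 the 20-m and 28-m T-cell libraries reach 73.0 and 89.9, whereas the 2-m T-cell library is at 0 and the 3 muscle libraries lie between 0 and 1.82.

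Read against the genome, gains of this kind were not frequent in the locus. Bins whose T-cell level was over 4-fold higher at both older ages than at 2 m numbered 12 of 1916 (0.626%), and 0.515% of all bins did so. Among CpG-dense bins they numbered 3 of 129 (2.33%), below the 6.19% of all CpG-dense bins. These 3 were 2 bins at Pcdhac2 and 1 in the first exon of Pcdhgc3. T-cell markers moved in the same libraries. The starts of Lck (5.75, 20.7 and 38.8 at 2, 20 and 28 m), Cd2 (5.75, 11.0 and 22.0) and Cd3e (14.9, 26.0 and 44.5) had higher levels in older T-cell libraries, Cd247 stayed between 0 and 0.811, and Cd3g was at 4.74, 10.5 and 6.17. The part of cell composition in the T-cell gains was not tested.

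With age, the first exon bodies of the locus went in opposite directions in muscle and T cells. In muscle their mean level was 122 at 2 m, 86.1 at 20 m and 48.4 at 28 m, and in T cells it was 112, 148 and 177. Of the 58 bodies, 57 were lower in 28-m than in 2-m muscle and 55 were lower at each step. All 58 were higher in 28-m than in 2-m T cells and 49 were higher at each step. The median ratio of 28 m to 2 m was 0.411 in muscle and 1.55 in T cells.

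These directions were those of methylated CpG-rich sequence in general. Among all bins with over 10 CpGs, 81.4% were lower in 28-m than in 2-m muscle, and 96.6% were among those with a 2-m T-cell level of at least 50. In T cells, 80.3% of all bins with over 10 CpGs were higher at 28 m than at 2 m. For a closer comparison, bins with over 10 CpGs and a mean level of at least 50 over the 6 libraries were taken. These bins were not matched for CpG number, with means of 14.8 over the table and 21.1 in first exon bodies of the locus. The median log2 difference between 28-m and 2-m muscle was -1.09 over the 195016 such bins of the table and -1.41 over the 154 in first exon bodies of the locus, and between 20 m and 2 m it was -0.29 and -0.52. In T cells the medians were 0.44 and 0.67 for 28 m against 2 m, and 0.26 and 0.43 for 20 m against 2 m. The medians of the first exon bodies thus lay farther from 0 than those of all such bins in both tissues, and inside the range from the 10th to the 90th percentile of all such bins, which was -1.66 to -0.45 for 28-m muscle and -0.02 to 0.88 for 28-m T cells. This difference was not tested, since neighbouring bins of 1 library are not replicates.

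The alpha cluster had the highest exon levels. Its 12 variable first exon bodies had means of 189 ± 31.4, 126 ± 13.3 and 65.6 ± 7.72 in 2-m, 20-m and 28-m muscle and 158 ± 19.0, 227 ± 29.3 and 274 ± 32.6 in T cells. All 12 were lower at each step in muscle and higher at each step in T cells. The 22 beta bodies had 95.4 ± 24.9, 68.7 ± 13.5 and 41.1 ± 7.04 in muscle and 89.0 ± 22.2, 110 ± 33.1 and 131 ± 34.0 in T cells. The 19 variable gamma bodies had 125 ± 47.6, 90.8 ± 20.5 and 49.9 ± 8.53 in muscle and 118 ± 37.6, 154 ± 56.7 and 184 ± 72.4 in T cells. All 22 beta bodies and 18 of the 19 gamma bodies were lower at each step in muscle. The spread between isoforms narrowed in muscle, from a coefficient of variation of 43.0% at 2 m to 26.4% at 28 m, and was 35.6% and 42.0% in T cells.

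Single exons show the range. The lowest ratio of 28-m to 2-m muscle was at Pcdhgb2, a variable gamma isoform, whose first exon body had 221, 125 and 54.5 in muscle and 155, 212 and 242 in T cells. Its bin at chr18:37691501-37692000 (46 CpGs) had the lowest ratio of 28-m to 2-m muscle among the bins with a mean level of at least 20, with 436, 169 and 57.4, against 250, 371 and 443 in T cells. Pcdhb15 had a bin (27 CpGs) with 261, 109 and 47.8 in muscle and 209, 258 and 336 in T cells. Both bins were thus higher in muscle than in T cells at 2 m and lower at 20 m and 28 m. The highest muscle ratio of the 58 was that of Pcdhgc3 (3.06). Among the variable gamma isoforms it was that of Pcdhga6, whose first exon body had 55.8, 51.1 and 42.9 in muscle, a ratio of 0.769. The first exon body of Pcdhga1 had 75.6, 74.5 and 87.9 in T cells, the lowest T-cell ratio at 1.16 (0.981 to 1.38).

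**Figure D4:**
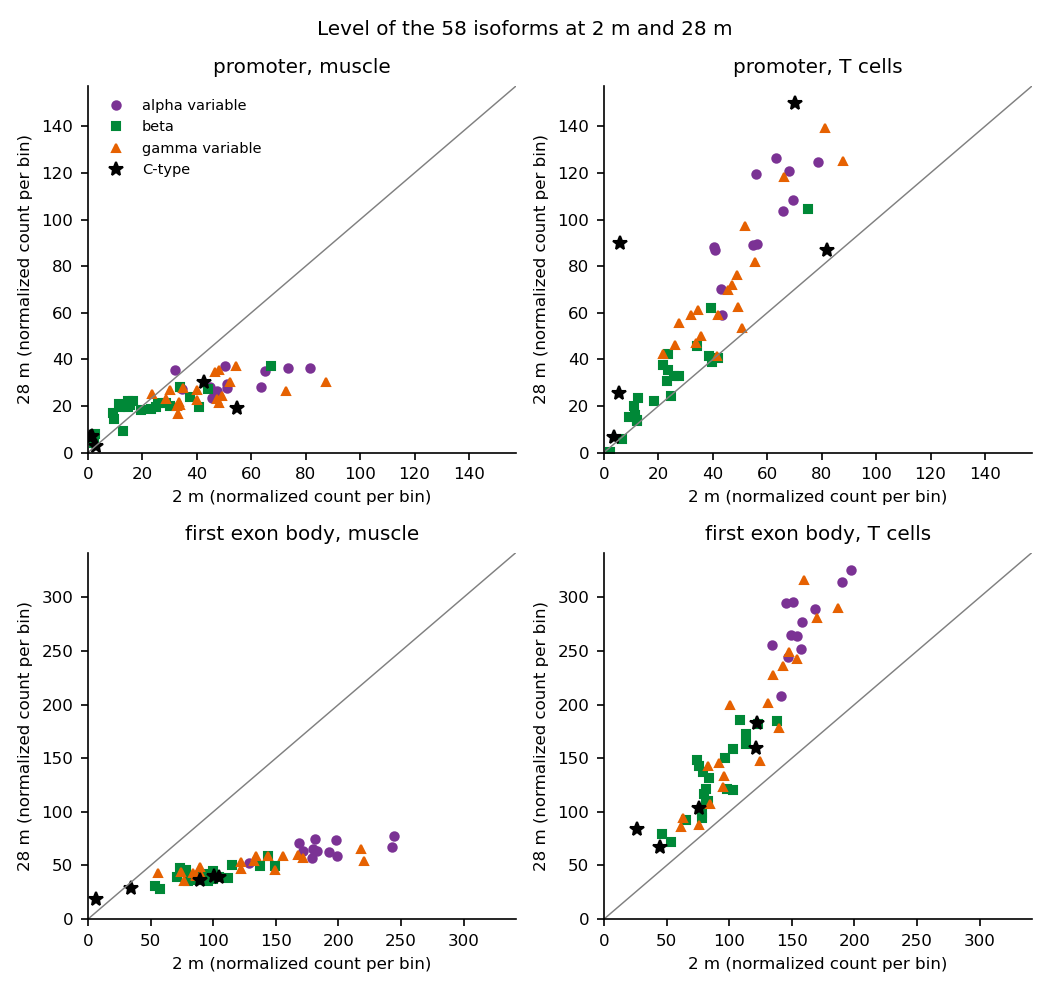
MBD level of each of the 58 isoforms at 28 m (y axis) against 2 m (x axis), in normalized counts per bin, for promoters (top) and first exon bodies (bottom) in muscle (left) and T cells (right); the line marks equal levels. In muscle 57 of 58 first exon bodies lie below the line and in T cells all 58 lie above it.

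In muscle the promoters differed less between ages, and less uniformly, than the first exon bodies. In T cells the difference was about as large at both, with median ratios of 28 m to 2 m of 1.56 over the promoters and 1.55 over the first exon bodies. In muscle the mean promoter level was 35.8, 34.9 and 23.5 at 2, 20 and 28 m, with 31 of 58 lower at 20 m than at 2 m and 44 of 58 lower at 28 m. In T cells it was 39.0, 53.6 and 62.1, with 48 and 52 of 58 higher. With all libraries set to an equal sum, 19 of 58 promoters were lower in muscle at 20 m and 31 at 28 m. In T cells 37 and 45 were then higher. Of the variable types, the alpha promoters were the one with all members higher at both older ages in T cells, with 56.6 ± 12.7, 93.1 ± 21.7 and 98.8 ± 22.0 (12 of 12). The median ratio of 28-m to 2-m T cells was 1.63 over them and 2.13 over the C-type promoters, of which 5 of 5 were higher at 28 m. The beta promoters had 22.6 ± 15.4, 24.2 ± 14.0 and 19.7 ± 6.90 in muscle, with 12 of 22 lower at 28 m than at 2 m, and 10 of 22 higher. Among those higher at 28 m were Pcdhb19 (11.8, 14.0 and 19.8) and Pcdhb20 (15.5, 25.3 and 20.4). The promoter of Pcdhgb7 had 72.8, 57.5 and 26.6 in muscle and 51.8, 75.0 and 97.4 in T cells, and its bin with the start (30 CpGs) had 91.9, 53.9 and 15.3 in muscle, the second lowest ratio of the 635 bins with a mean level of at least 20.

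Bins with few CpGs had higher levels in 28-m muscle, in the window as in the genome. Bins of the window with 0 to 2 CpGs had median levels of 1.82, 1.68 and 6.37 in 2-m, 20-m and 28-m muscle, and all such bins of the table had 1.82, 2.53 and 7.01. In 28-m muscle 705 of the 1916 bins (36.8%) were over 2-fold higher than at 2 m, and 36.7% of all bins were. By contrast, 270 bins (14.1%) were over 2-fold lower, and 7.65% of all bins were. At 20 m the counts in muscle were 269 higher (14.0%, compared with 14.4% of all bins) and 173 lower (9.03%, compared with 9.72%). In T cells 219 bins were higher at 28 m (11.4%, compared with 10.7%) and 319 lower (16.6%, compared with 21.6%), and 248 were higher at 20 m (12.9%, as over all bins at 12.9%) and 284 lower (14.8%, compared with 18.3%). Only the share of bins that were lower in 28-m muscle was well above that of the table. These shares are not matched for CpG number, and the window has more CpG-dense bins than the table. Among bins with over 10 CpGs and a mean level of at least 50, 99.3% of those in the window were lower by any amount. The share over the table was 97.6%. An example of a bin that was higher is one before the start of Pcdhga3 (5 CpGs), with 7.28, 21.9 and 31.2 in muscle and 10.2, 14.6 and 2.64 in T cells.

 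The mean direction at the exons held under both other scalings of the libraries, whereas that at the promoters in muscle turned under 1 of them. With all libraries set to an equal sum, the mean log2 difference of 28 m minus 2 m was -0.77 in muscle and 0.31 in T cells over the first exon bodies (main values -1.21 and 0.63), and 0.10 and 0.30 over the promoters (main values -0.33 and 0.61). With equal medians it was -1.62 and 0.40 over the first exon bodies and -0.73 and 0.39 over the promoters. The median log2 difference between 28-m and 2-m muscle over all bins of the table was 0.55 as scaled by the authors and 0.98 with equal sums.

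Muscle and T cells had similar profiles along the locus, and less so with age, as over the whole table. The Pearson coefficient between the tissues over the 1916 bins was 0.907 at 2 m, 0.890 at 20 m and 0.805 at 28 m, and over all bins 0.856, 0.827 and 0.713. At 2 m, T cells lay above muscle in 21 of the 58 first exon bodies and in 35 of the 58 promoters. At 20 m they did so in 57 and 46, and at 28 m in 58 and 52. The median ratio of T cells to muscle over the first exon bodies was 0.965, 1.64 and 3.63 at the 3 ages. All 3 T-cell values lay above all 3 muscle values at 19 promoters and 19 first exon bodies, and the reverse did not occur at any. By single bins with over 10 CpGs, all T-cell values lay above all muscle values at 115 of 310 bins of the window (37.1%), compared with 48.6% of all such bins, and the reverse held at 0 of 310, compared with 1.91%. Over bins of any CpG number the shares were 10.2% and 17.2% in the window, compared with 9.85% and 20% of all bins. The locus thus showed no excess of such bins. This tissue direction depended on how the libraries were scaled. The sum of normalized counts was greater in the T-cell than in the muscle libraries, and with all libraries set to an equal sum T cells lay above muscle at 1, 4 and 47 of the 58 first exon bodies at 2, 20 and 28 m, and at 0 isoforms did all T-cell values lie above all muscle values, while the reverse held at 9 first exon bodies and 24 promoters. With equal medians the counts were 17, 57 and 58. The tissue differences are relative to the scaling of the authors.

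Single bins that separated the tissues at every age were about as frequent in the locus as elsewhere. Muscle was at least 2-fold above T cells in all 9 pairs of libraries at 84 bins (4.38%), compared with 4.22% of all bins, and T cells were above muscle at 15 bins (0.783%), compared with 0.794%. Among bins with over 10 CpGs, T cells were above muscle at 9 of 310 (2.90%), compared with 5.23% of all such bins, and muscle was above T cells at 0 of 310, compared with 0.675%. Of the 15 bins, 10 lay in the stretch after the first exon of Pcdhga12, which holds the C-type gamma isoforms, the constant exons and the flank after the cluster (182 bins, 5.49%), and 3 of these 10 lay in the flank (36 bins). This stretch was chosen after the values were seen. Without the 28-m libraries of both tissues, T cells were above muscle at 32 bins, and the share of all bins was 1.94%.

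Of the 15 bins in which T cells exceeded muscle, 4 lay in promoters or first exons, those of Pcdhac2, Pcdhgc4, Pcdhac1 and Pcdha12, and 11 lay between exons. The bin at chr18:37816001-37816500 in the first exon of Pcdhgc4 (16 CpGs) had 23.7, 38.7 and 15.3 in muscle and 82.2, 165 and 198 in T cells. A bin of the Pcdhac1 promoter (29 CpGs) had 34.6, 39.6 and 28.0 in muscle and 88.3, 127 and 218 in T cells. A bin between the alpha and beta clusters (chr18:37217501-37218000, 17 CpGs) had 3.64, 2.53 and 8.29 in muscle and 28.4, 31.6 and 39.7 in T cells. In all 3 the lowest T-cell level was over 2-fold above the highest muscle level. The bins in which muscle exceeded T cells had low levels and few CpGs. The leading one, 590 bases before the start of Pcdhb2 (2 CpGs), had 8.19, 7.58 and 11.5 in muscle and 0 in all T-cell libraries.

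Muscle RNA of the locus came mainly from 1 C-type isoform, the variable gamma genes and the beta genes. At 2 m the mean sums were 597 normalized counts for the C-type, 571 for the variable gamma and 426 for the beta genes. At 28 m they were 596, 958 and 266 in the same order. All 58 isoforms were in the RNA table, 7 of them (6 variable alpha isoforms and Pcdhac1) had no read in any of the 9 libraries, and 28 passed the minimum mean of 10 normalized counts. These 28 were 9 beta genes, 18 variable gamma genes and Pcdhgc3. Because isoforms of a cluster share constant exons and the library kit did not mark strand, reads of the shared exons and of any antisense RNA cannot be told apart between genes. RefSeq also has 3 read-through gene models over both clusters (Gm37013, Gm38666 and Gm38667, all ending at 37841873), and reads that touch more than 1 gene can be left uncounted. First exons of a cluster are alike in sequence, so reads may be placed at a related exon in both assays. The part of these in the values was not tested.

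Pcdhgc3 had 595, 469 and 691 normalized counts at 2 m, 488, 471 and 540 at 20 m and 624, 561 and 576 at 28 m. The 2-m and 20-m values overlapped, and neither contrast with 2 m passed the test (adjusted p = 0.319 and 0.939, limma). Per kb of first exon it had 217 normalized counts as a mean over the 9 libraries, and the next isoforms were Pcdhgb6 with 43.5, Pcdhgb7 with 36.6 and Pcdhgb2 with 34.4. Pcdhac2, whose start was nearly free of MBD capture in muscle like that of Pcdhgc3, had between 0 and 4.33 normalized counts, and Pcdhgc4 between 1.44 and 4.14. A start with little capture thus went with RNA at Pcdhgc3 and not at the other pair. Over the 58 isoforms the Spearman coefficient between promoter level and RNA was between -0.12 and -0.08 at the 3 ages, and that between first exon body and RNA between -0.30 and -0.22. Within types the promoter coefficients differed in sign, from 0.16 to 0.38 over the 19 variable gamma isoforms, 0.10 to 0.16 over the 22 beta isoforms and -0.64 to 0.04 over the 12 variable alpha isoforms, which had hardly any RNA. The first exon body coefficients also differed in sign within types, from 0.22 to 0.25 over the variable gamma isoforms, -0.18 to 0.09 over the beta and -0.39 to -0.37 over the variable alpha isoforms. All these points share their libraries.

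The isoforms that passed the test in aged muscle were variable gamma genes, 4 of the 18 tested at 20 m and 5 of 18 at 28 m. The 19 variable gamma genes summed to 586, 442 and 684 normalized counts at 2 m, 889, 808 and 960 at 20 m and 1011, 887 and 976 at 28 m, and the groups of 20 m and 28 m did not overlap that of 2 m. Of the 18 tested, 16 had a log2 fold change above 0 at 20 m and 17 at 28 m, with medians of 0.54 and 0.83, compared with -0.02 and -0.01 over all 13183 tested genes. Between 2 m and 20 m, 4 isoforms rose (adjusted p under 0.05 in limma), all variable gamma, and 0 fell, whereas 9.43% of all tested genes rose and 7.12% fell. Between 2 m and 28 m, 5 rose, again all variable gamma, and 0 fell, compared with 7.53% and 6.24%. At an unadjusted p under 0.05 in limma, 7 of the 28 tested isoforms were higher at 20 m and 8 at 28 m, all variable gamma (16.7% and 14.6% of all tested genes). At the same threshold 2 of 28 were lower at each age, all beta (14.7% and 13.5% of all tested genes). By edgeR 3 rose at 20 m and 4 at 28 m, without Pcdhgb4 (adjusted p = 0.0675, edgeR) and Pcdhga4 (adjusted p = 0.0665, edgeR), and 0 fell at either age. By DESeq2 the same 4 rose at 20 m and Pcdhga3 was added at 28 m, 0 fell at 20 m and 1, Pcdhb22, at 28 m. Groups of libraries did not overlap at 7 of the 28 tested isoforms that were higher at 20 m and 7 at 28 m, all variable gamma (18.4% and 15.3% of all tested genes), and at 2 of 28 that were lower at each age, all beta (17.6% and 15% of all tested genes). With all libraries set to an equal sum, 0 isoforms were called at 20 m and only Pcdhga4 at 28 m, and calls over all genes at 28 m were also fewer, 271 up and 146 down compared with 993 and 823.

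Pcdhgb7 had 60.2, 35.2 and 58.5 normalized counts at 2 m, 138, 92.8 and 110 at 20 m and 108, 119 and 126 at 28 m. All 6 older libraries lay above the 3 young ones. It rose by a log2 fold change of 1.15 ± 0.26 (SE) at 20 m (adjusted p = 0.0102, limma) and 1.22 ± 0.26 at 28 m (adjusted p = 0.00855, limma). Pcdhgb2, the isoform with the lowest muscle ratio of first exon capture, had 44.6, 44.1 and 59.2 at 2 m, 118, 111 and 83.4 at 20 m and 123, 87.0 and 106 at 28 m. Again the older libraries lay above all young ones, and it rose by 1.06 ± 0.25 (adjusted p = 0.0120, limma) and 1.08 ± 0.25 (adjusted p = 0.0124, limma). For a single gene, the exact two-sided permutation test of 3 against 3 libraries cannot give a p below 0.1, which is what both genes gave in both contrasts.

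Pcdhga10 had 24.5, 31.7 and 25.3 at 2 m, 39.2, 60.7 and 85.5 at 20 m and 89.2, 80.1 and 60.4 at 28 m, and rose by 1.10 ± 0.33 (adjusted p = 0.0402, limma) and 1.45 ± 0.33 (adjusted p = 0.0126, limma). Its 20-m libraries differed among themselves by more than the 2-m libraries did. Pcdhgb4 (11.1, 21.1 and 27.4 at 2 m, 67.3, 38.8 and 39.8 at 20 m, 38.0, 49.7 and 45.3 at 28 m) rose only at 20 m, by 1.29 ± 0.40 (adjusted p = 0.0454, limma), and had 1.19 ± 0.40 at 28 m (adjusted p = 0.0674, limma). Pcdhga2 rose at 28 m by 1.35 ± 0.36 (adjusted p = 0.0251, limma), from 20.1, 17.6 and 20.2 to 66.4, 38.7 and 51.0. Pcdhga4 rose at 28 m by 2.25 ± 0.67 (adjusted p = 0.0417, limma), from 2.23, 10.6 and 19.5 to 41.7, 48.3 and 37.7. In none of these 3 did the groups compared overlap. 

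Several of these calls were no longer made when 1 library was left out, also libraries of the age outside the contrast, while the fold changes stayed above 0 throughout. Over all alternatives the log2 fold change of Pcdhgb2 ranged from 0.97 to 1.21 at 20 m and 0.96 to 1.22 at 28 m, and that of Pcdhga2 at 28 m from 1.16 to 1.55. Wider ranges were those of Pcdhga4 at 28 m, from 1.49 to 2.83, and, at 20 m, of Pcdhgb4, from 0.94 to 1.55, and Pcdhga10, from 0.83 to 1.38. Without the 20-m replicate 1, the adjusted p at 20 m (limma) was 0.0575 for Pcdhgb7, 0.0609 for Pcdhgb2 and 0.186 for Pcdhgb4. Without the 20-m replicate 2, it was 0.0509 for Pcdhgb2, 0.111 for Pcdhga10 and 0.0793 for Pcdhgb4. Without the 28-m replicate 1, the adjusted p at 28 m (limma) was 0.0606 for Pcdhgb2, 0.0596 for Pcdhga10, 0.114 for Pcdhga2 and 0.110 for Pcdhga4, and Pcdhgb7 alone was still called. The Pcdhgb4 call was lost without any 1 of 8 libraries, all but the 2-m replicate 3, and the Pcdhga10 call at 20 m without any 1 of 6, with adjusted p up to 0.150 without the 20-m replicate 3. Pcdhga2 was no longer called without any 1 of the 2-m libraries or without the 28-m replicate 1 or 3, and Pcdhga4 without the 2-m replicate 1 (0.120), the 20-m replicate 2 or 3, or any 28-m library. Over all alternatives the adjusted p of Pcdhgb7 at 28 m ranged from 0.000807 to 0.0710.

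The other variable gamma genes did not pass the test. Pcdhga3 came nearest at 28 m, with 35.7, 24.7 and 33.9 at 2 m and 70.2, 49.7 and 75.5 at 28 m, a log2 fold change of 1.02 (adjusted p = 0.0546, limma). Pcdhgb6, the variable isoform with the most RNA, had 105, 82.8 and 107 at 2 m, 153, 116 and 119 at 20 m and 110, 95.3 and 117 at 28 m. All its 20-m libraries lay above the 2-m ones (log2 fold change 0.39, adjusted p = 0.214, limma), and the 28-m libraries overlapped them. Pcdhga6 was below 0 at 20 m, with a log2 fold change of -0.90 (adjusted p = 0.369, limma).

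Between 20 m and 28 m no isoform was called by limma, edgeR or DESeq2, with 0.212% of all genes rising and 0.167% falling in limma. At an unadjusted p under 0.05 in limma, 0 isoforms were higher and 0 lower, compared with 5.15% and 5.43% of all tested genes. Groups did not overlap for Pcdhga5 and Pcdhgc3, which were higher in all 28-m than in all 20-m libraries, and 0 isoforms were lower in all of them, compared with 8.62% and 8.84% of all tested genes. Pcdhga5 had 33.6, 27.0 and 38.7 at 20 m and 47.4, 44.2 and 52.8 at 28 m.

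**Figure D5:**
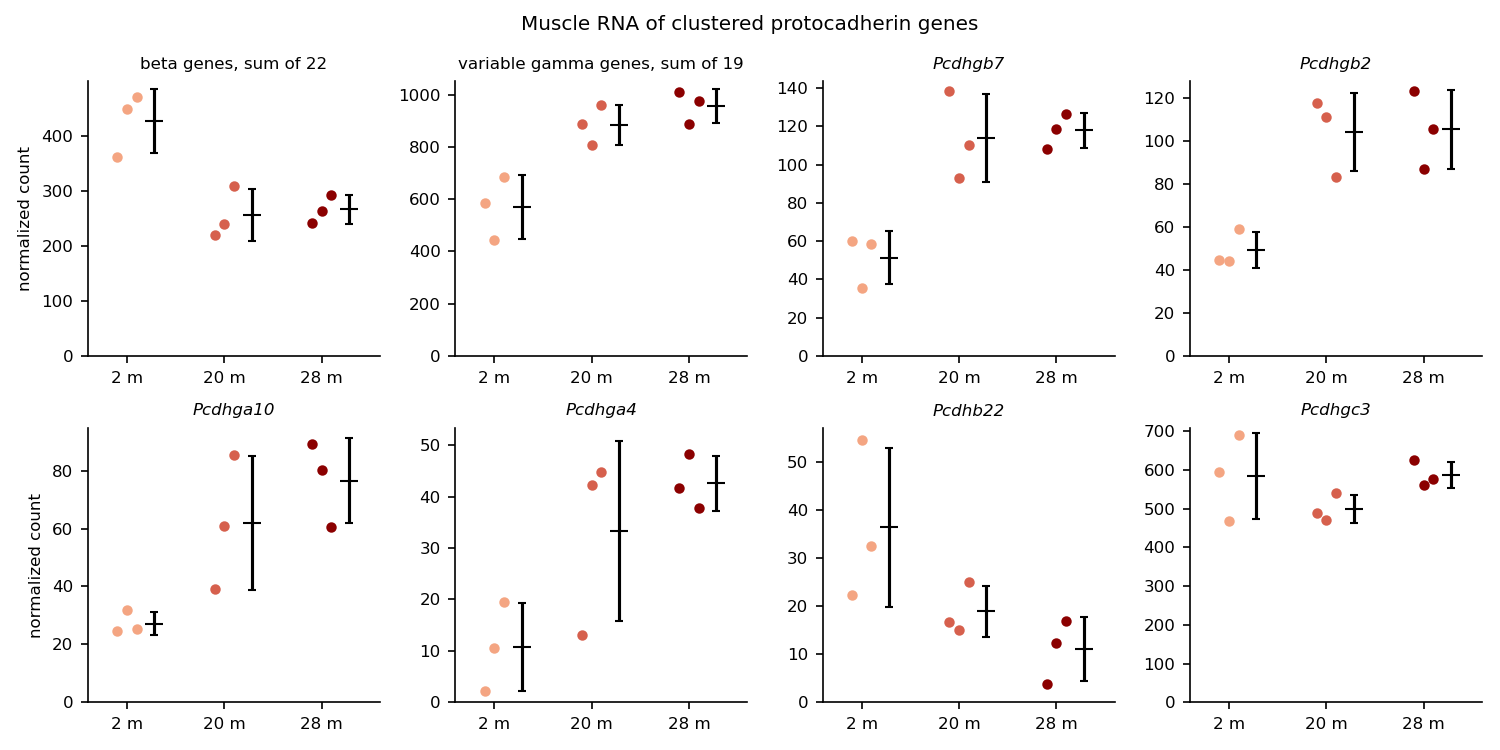
Muscle RNA in normalized counts at 2, 20 and 28 m for the sums over beta and variable gamma genes and for 6 isoforms; points are the 3 libraries of an age, and the bar beside them is their mean with its SD. The variable gamma sum, Pcdhgb7, Pcdhgb2 and Pcdhga10 are higher in every 20-m and 28-m library than in any 2-m library, whereas Pcdhgc3 at 2 m overlaps both older ages.

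Of the beta genes, 0 passed the limma test at either age, whereas DESeq2 called Pcdhb22 as lower at 28 m. The sum of the beta genes, which was not tested, was lower in aged muscle. The 22 beta genes summed to 361, 448 and 471 normalized counts at 2 m, 219, 240 and 308 at 20 m and 241, 264 and 293 at 28 m, so that no older library reached the lowest young one. Of the 9 tested, 7 had a log2 fold change below 0 at 20 m and 6 at 28 m. Groups did not overlap for Pcdhb17 and Pcdhb20 at 20 m and for Pcdhb14 and Pcdhb22 at 28 m. Pcdhb17, the beta gene with the most RNA per kb of first exon (21.8), had 114, 75.8 and 93.9 at 2 m, 54.2, 74.2 and 45.2 at 20 m and 53.1, 51.1 and 81.2 at 28 m. Pcdhb22 had 22.3, 54.6 and 32.5 at 2 m and 3.80, 12.4 and 17.0 at 28 m, a log2 fold change of -1.74 ± 0.58 (adjusted p = 0.0657, limma). Pcdhb14 had -1.33 ± 0.51 at 20 m (adjusted p = 0.0916, limma), and Pcdhb20 had -1.44 ± 0.59 at 28 m (adjusted p = 0.132, limma). The beta and variable gamma sums lay in opposite directions. First exon bodies of both clusters had lower mean MBD levels in aged muscle, and a link between RNA and MBD level was not tested.

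The MBD differences of called and uncalled genes are given side by side, with no test. At 28 m against 2 m the first exon bodies of the 5 variable gamma genes that rose had log2 differences from -2.0 to -0.86 with a median of -1.35, and the 13 tested ones that were not called had -1.72 to -0.37 with a median of -1.12. The lowest value of all was that of Pcdhgb2, which was called, and the ranges overlapped. Of the nerve markers examined in the same RNA, the 6 summed to between 2324 and 2855 normalized counts at 2 m, 1159 and 1778 at 20 m and 1746 and 2397 at 28 m, and the 4 that mark neurons alone (Tubb3, Snap25, Rbfox3 and Nefl) summed to between 0 and 8.92 at 2 m, 3.27 and 10.1 at 20 m and 11.4 and 39.6 at 28 m. Every 28-m library thus lay above every younger one in the neuron-only sum, while the 20-m range overlapped that of 2 m. In the means this was due to Tubb3, with 1.44, 4.52 and 22.9 at 2, 20 and 28 m. Snap25 and Rbfox3 had lower means at 28 m (0.633 for each) than at 2 m (2.23 and 1.71), and Nefl did not exceed 0.633. None of the 4 genes was tested. The T-cell markers summed to between 37.5 and 60.2 at 2 m, 32.1 and 40.9 at 20 m and 30.4 and 80.1 at 28 m. The 5 muscle markers summed to between 4515640 and 5504764 at 2 m, 4232853 and 4977476 at 20 m and 3963508 and 4395934 at 28 m, so that every 28-m library lay below every 2-m one. The part of muscle, nerve and blood cells in the RNA differences of the locus was not tested.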

How the data were processed

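MBD-seq and RNA-seq values were used as deposited. Per the labels and the methods of the study, the authors trimmed paired reads with Trim Galore, aligned MBD reads to mm10 with Bowtie2 at default options, counted reads in 500-bp bins with bedtools and divided them by DESeq2 size factors, so the deposited values are normalized signal and not raw counts. RNA reads were counted per RefSeq gene with htseq-count (intersection-strict) and normalized in the same way by the authors. The aligner of the RNA reads is named differently in the labels and the methods (TopHat and Hisat2). In every library the signal was a whole multiple of 1 read (100% of values within 1e-04), so reads were recovered for counting intervals and count tests. RNA libraries held 33051271 to 121485345 reads, and 1 read was worth 0.545 to 2.23 normalized counts.

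Bins were assigned to RefSeq exons of GRCm38.p6, the same assembly as mm10. MBD values have 1 pool for each tissue and age, and no test was run on them. RNA was tested with limma 3.58.1 (trend, log2 of the normalized count + 1) on 13183 of 23425 genes with a mean of at least 10 and all 9 libraries, with Benjamini-Hochberg adjustment over all tested genes. Fold changes are on that log2 scale and understate those of low genes. edgeR 4.0.16 and DESeq2 1.42.0 were alternatives. R 4.3.3 and Python 3.11.15 were used, and the scripts were tested on simulated data. RNA p-values of limma rest on the spread between mice within an age, pooled over the 3 ages and moderated over all tested genes. The locus, the isoforms and the lists were chosen with earlier results of these data known. Items were named by rule, as the C-type isoforms, the 3 highest and 3 lowest promoters of each cluster, the isoforms and single bins with the largest tissue or age differences and RNA genes above the minimum, of which the text gives the leading ones.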

Additional observations from a re-analysis of the deposited data

Results flagged for a closer look

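The mean log2 difference of the 58 isoforms had opposite signs in muscle and T cells over the first exon bodies at both older ages and over the promoters at 28 m. Over the first exon bodies it was -0.44 in muscle and 0.37 in T cells for 20 m minus 2 m, and -1.21 and 0.63 for 28 m minus 2 m. Over the promoters it was -0.33 in muscle and 0.61 in T cells for 28 m minus 2 m. For 20 m minus 2 m the promoter means shared a sign, at 0.04 and 0.39. With equal sums they also did so for 28 m minus 2 m, at 0.10 and 0.30. With 1 pool for each tissue and age, this contrast between tissues has no test.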

How the results depend on the processing

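The mean log2 difference over all bins of the window depended on the setting. As reported it was 0.07 and 0.53 in muscle (20 m and 28 m minus 2 m) and 0.03 and -0.01 in T cells. In the same order it was 0.13, 0.83, -0.00866 and -0.12 with a pseudocount of 0.25, -0.00828, -0.15, 0.13 and 0.19 in bins with a read in every library, 0.020, -0.11, 0.0844 and 0.13 in bins with a mean of at least 5, 0.18, 1.02, -0.15 and -0.19 with equal sums, and -0.0213, 0.18, -0.0424 and -0.15 with equal medians. In bins with at most 50% repeats the 28-m muscle value was 0.43 and the T-cell values 0.0859 and 0.10. As an alternative chosen after seeing the data, the window minus all bins gave -0.0144, -0.11, 0.10 and 0.16.

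Bins with muscle above T cells numbered 148 with a pseudocount of 0.25 (7.02% of all bins of the table), 14 of 1127 with a read in every library (1.2% of all such bins), 24 of 1148 with a mean of at least 5 (2.43%), 275 with equal sums (15.6%) and 53 of 1322 with few repeats (4.21%), and without a fold minimum 330 (20.0%), with 195 in the other direction (9.85%). T cells were above muscle at 0 bins with equal sums (0.0863%) and at 32 without the 28-m libraries (1.94%), the latter chosen after seeing the data. The promoter means of 28 m minus 2 m were -0.20 in muscle and 0.68 in T cells for the single bin with the start, -0.59 and 0.57 for 1000 bases on each side, and 0.10 and 0.30 with equal sums. The T-cell value of Pcdhgc4 (main 2.05) was -0.38 for the single bin. Over first exon bodies, scalings chosen after seeing the data gave -0.33, -0.77, 0.0828 and 0.31 with equal sums and -0.56, -1.62, 0.26 and 0.40 with equal medians, so no direction changed. The cause of these shifts was not tested.

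For RNA, 2 isoforms rose at 20 m and 3 at 28 m without a filter on low values, where Pcdhb5 also fell (1 isoform). At a mean of at least 50, 3 rose at 28 m. With equal sums 0 rose at 20 m and 1 (Pcdhga4) at 28 m, while calls over all genes at 28 m went from 993 up and 823 down to 271 and 146. With the replicate number as a block, and with DESeq2, 1 isoform fell at 28 m (Pcdhb22). The block lost no call and added Pcdhga4 at 20 m and Pcdhga3 at 28 m. It is no pairing, since deviations of libraries of the same number correlated between -0.04 and 0.16, and it moved the calls over all genes at 28 m to 1366 up and 1157 down. Leaving out 1 library at a time, 1 to 4 isoforms rose at 20 m and 1 to 5 at 28 m, and 0 to 1 fell (Pcdhb14 or Pcdhb20). Pcdhgb7 at 28 m was called in 16 of 17 alternatives, and Pcdhgb2 and Pcdhga10 at 28 m in 15 of 17. The main limits are 1 pool for each tissue and age, no value for the spread between mice in the MBD data, a 28-m muscle library that stands apart, and few reads in bins with few CpGs and for most isoforms in RNA.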
